A study of Mus musculus with 22 samples.

Results

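The cells described here were 2620 capillary endothelial barcodes of mouse organs, out of 179929 barcodes in 22 single-cell RNA libraries. They were chosen by their transcripts. A barcode of a tissue library needed at least 200 detected genes, at most 25% mitochondrial UMIs (unique molecular identifiers, each standing for a captured transcript), and a UMI of at least 2 of the 4 pan-endothelial genes Pecam1, Cdh5, Cldn5 and Egfl7. It also needed a UMI of Gpihbp1, the capillary protein that carries lipoprotein lipase to the vessel lumen. At least 1 UMI of Plvap, Hpgd, Sema3c or, where Lyve1 was absent, Cd93 was required as well. UMIs of Ptprc (leukocytes), Epcam (epithelium), Car4 and Ednrb (aerocytes), Mmrn1 and Stab2 (lymphatic and sinusoidal endothelium) and Vwf (large vessels) had to be 0. The 2620 barcodes were 18.5% of 14136 endothelial barcodes (2 of the 4 pan-endothelial genes, no Ptprc, no Epcam) and 2.82% of the 93055 tissue barcodes that passed the quality limits.

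The study followed the sodium leak channel gene Nalcn in mice with and without tumors, and the tissue libraries used here came from aged mice without tumors. All mice carried Prom1-CreERT2, a tamoxifen-inducible recombinase driven by the Prom1 promoter, and the Rosa26ZSG reporter, so that only cells of the Prom1 lineage and their progeny could recombine. Groups were 5 tissue libraries labelled Nalcn-wt (aged 571, 571, 608, 611 and 654 days), 2 labelled Nalcn-het (both 551 days) and 2 labelled Nalcn-null (552 and 611 days, the older assigned by its strain entry alone). Another 2 libraries entered no comparison of genotypes. The title of the first (610 days) named Nalcn-het and its strain entry Nalcn-null, and the title of the other (647 days) named Nalcn-null while its strain entry held no Nalcn allele. Each library pooled kidney, liver, lung and stomach with epididymis in males or uterus in females. Wt replicates 4 and 5 and null replicate 3 were labelled female and the other grouped libraries male. The organ hashtags were not analysed here, so the organ of a barcode is unknown. The study describes its replicates as biological, but the labels name no mouse for a library, and p-values measure the spread between libraries.

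The capillary bed of the lung alveolus is formed by a pair of endothelial cell types. General capillary cells express Gpihbp1, Plvap, Hpgd (the enzyme that inactivates prostaglandins) and Sema3c, act as the progenitors of the alveolar bed and carry the apelin receptor. Aerocytes are large, thin cells that lie against the gas exchange surface and express Car4, Ednrb and the apelin ligand. Gpihbp1 and Plvap are not particular to lung and also mark capillaries of other organs.

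The 11 tissue libraries held 1856 to 27857 barcodes and 8571019 to 139793927 UMIs, and the members had a median of 1167 to 2436 UMIs in the 8 grouped libraries with more than 1 member. Wt replicate 5 gave 1 member among 18 endothelial barcodes and entered no gene test. In null replicate 3, labelled female, 300 of 411 members carried Xist without a Y-linked transcript, 2 carried a Y-linked transcript alone, 7 carried both and 102 neither. None of the members of the other female libraries carried a Y-linked transcript, and none in the male libraries carried Xist. Among pairs of tissue libraries at most 0.9% of the barcodes of the smaller library occurred in the other, and 1 member barcode was shared (wt replicate 1 with the library aged 647 days). Of the 11 blood libraries, 10 held circulating reporter-positive cells, labelled Nalcn-wt, het or null and aged 551 to 649 days. The other held mononuclear cells, labelled Nalcn-wt and aged 120 days. They gave 0 members among 2109 and 679 barcodes that passed the quality limits, of which 1 was endothelial.

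Members were found in every tissue library. Their share of endothelial barcodes, with exact 95% binomial intervals that cover counting error only, was 13.1% (10.9 to 15.5), 17.4% (15.7 to 19.1), 16.3% (13.6 to 19.2), 18.8% (16.9 to 20.9) and 5.56% (0.141 to 27.3) in wt replicates 1 to 5. It was 21.4% (19.3 to 23.5) and 17.8% (15.3 to 20.6) in the het libraries and 14.6% (12.1 to 17.3) and 20.5% (18.7 to 22.3) in the null libraries. The genotypes overlapped, and the lowest value rested on the library with 18 endothelial barcodes.

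**Figure D1:**
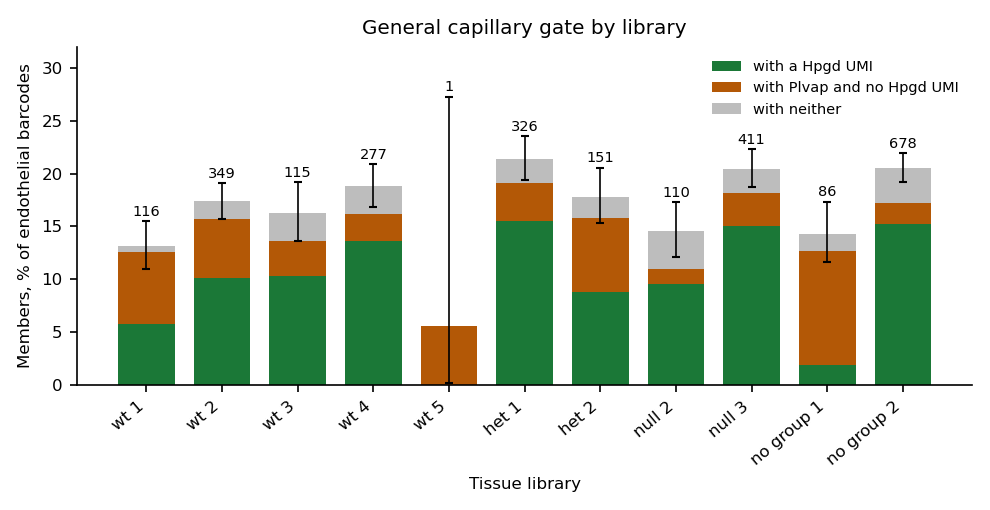
Members as a percent of endothelial barcodes in each tissue library, stacked by the presence of Hpgd, of Plvap without Hpgd, or of neither. Exact 95% binomial intervals are shown as bars, with the number of members above. Shares lay between 13.1% and 21.4% in the libraries with more than 1 member, and in these libraries the members with an Hpgd UMI made up 12.8% to 74.0% of members.

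The genes that chose the members are given as a description, without a test. Over 8 libraries Gpihbp1 (chromosome 15, 75596628 to 75599481, mm10) averaged 987 ± 203 CPM (mean ± SD), where CPM scales the summed UMIs of a library's members to 1000000. Sema3c (chromosome 5, 17574281 to 17730268), a secreted semaphorin, averaged 1282 ± 530 CPM, and Hpgd (chromosome 8, 56294585 to 56321043) 1101 ± 274 CPM. Plvap (chromosome 8, 71497765 to 71511752), which forms the diaphragms of fenestrae and caveolae, averaged 589 ± 288 CPM and ranged from 276 to 1202 CPM. Hpgd was present in 1724 members (65.8%), Plvap without Hpgd in 556 (21.2%), and neither in 340 (12.98%). At the edge of the rule, the 719 members with exactly 2 of the 4 pan-endothelial genes had a median of 1290 UMIs, and 382 barcodes with exactly 1 that met the rest of the rule had 1148. Their Gpihbp1 was 1087 and 1037 CPM, their Igfbp5 2607 and 3240 CPM and their Pecam1 669 and 319 CPM.

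The most abundant transcripts outside mitochondrial and ribosomal protein genes were Malat1 (29075 ± 2443 CPM), the red cell gene Hbb-bs and Tmsb4x (5535 ± 1323 CPM). Hbb-bs ranged from 84.8 to 19010 CPM, more than any other of the 20 most abundant genes relative to its mean of 6468 CPM, and the sum of the red cell and platelet markers ran from 173 to 29041 CPM. Of endothelial genes, Epas1, a hypoxia-inducible transcription factor, stood at 2427 ± 498 CPM and Fabp4 at 2100.1 ± 1055 CPM, with Fabp4 ranging from 974 to 4340 CPM. The early response genes Ier3 (2260 ± 1073 CPM) and Egr1 (2232 ± 1130 CPM) were also among the 20.

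The lung label was then checked against genes outside the rule. The members with Hpgd and the members with Plvap alone carried the transcripts of different organs. At least 1 of the lung endothelial genes Foxf1, Tmem100 and Scn7a was detected in 86.2% of the 1724 members with Hpgd and in 16.4% of the 556 with Plvap alone. At least 1 of the kidney endothelial genes Igfbp5 and Igfbp3 was detected in 13.3% of the former and 79.0% of the latter. The corresponding shares were 91.0% and 17.6% of aerocytes and 10.5% and 11.8% of Ptprc-positive barcodes. These passed the quality limits and held at least 1 UMI of the leukocyte gene Ptprc. Doublets and barcodes with genes of other cells were not removed from them. Over the 8 grouped libraries with more than 1 member the kidney share ranged from 6.75% to 27.5% in members with Hpgd, from 5.56% to 26.8% in aerocytes and from 4.96% to 19.9% in Ptprc-positive barcodes, and the order of the 3 classes differed between libraries. Median UMI counts by library were 1323 to 2696 in members with Hpgd, 772 to 2396 in those with Plvap alone, 1226 to 2912 in aerocytes and 1161 to 4138 in Ptprc-positive barcodes. Of the 340 members with neither transcript, 59.4% carried a lung gene and 15.3% a kidney gene. Over the same 8 libraries the lung share ran from 60.8% to 95.1% in members with Hpgd and from 1.67% to 36.4% with Plvap alone. The kidney share of those with Plvap alone ran from 45.5% (null replicate 2, 11 barcodes) to 95.0%. In the library aged 610 days 27.3% of its 11 members with Hpgd carried a lung gene.

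The Plvap-alone members made up 51.7%, 32.4%, 20% and 13.7% of members in wt replicates 1 to 4, 16.9% and 39.7% in het replicates 1 and 2, and 10.0% and 15.3% in null replicates 2 and 3. The libraries without a group gave 75.6% and 9.88%. For these reasons the 2620 barcodes are called members or general capillary gate below, and gene results are given for the members with Hpgd alone where that changed them. The tests of shares and ratios counted all members, also those with Plvap alone.

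The members with Hpgd and those with Plvap alone were compared in 7 libraries that held at least 20 of each, with the library as a block. Of 4867 genes tested, 574 were higher (11.8%) and 383 lower (7.87%) in the members with Hpgd (edgeR quasi-likelihood test, adjusted p under 0.05), and 653 of these 957 (19.7% of genes tested) moved the same way in all 7 libraries. The members with Hpgd had the higher median UMI count in every library compared, and on barcodes thinned to 1000 UMIs, with 5 libraries left, 390 genes passed.

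Of the 8 lung endothelial genes, 7 were higher in members with Hpgd, with a median log2 fold change of 2.20 (-0.04 over all genes tested). Foxf1, a transcription factor of lung mesenchyme and lung endothelium, ranged from 239.7 to 643 CPM (median 400.5) in members with Hpgd and from 0 to 107 CPM (median 45.9) in those with Plvap alone. The groups did not overlap, and the log2 fold change was 3.49 ± 0.26 (SE, adjusted p = 2.54e-08). Tmem100, a membrane protein downstream of BMP signaling, ranged from 406 to 1003 CPM (median 803) against 10.4 to 223 CPM (median 53.5) (log2 fold change 3.42 ± 0.29, adjusted p = 9.87e-08). Scn7a, a sodium channel family member, averaged 860.0 ± 236 against 109.7 ± 118 CPM (log2 fold change 3.17), Bmp6 314 against 70.1 CPM (2.49) and the adrenomedullin receptor gene Calcrl 1722 against 478 CPM (1.91). Hoxa5 (1.29) and Tbx3 (1.37) also rose, and every one of these 7 was higher in 7 of 7 libraries. The summed fibroblast and mural markers were 616 to 1053 CPM in members with Hpgd and 20.9 to 1150 CPM in those with Plvap alone, higher in the former in 6 of 7 libraries (not in wt replicate 3), and 1 of 6 tested passed (Inmt, higher). Of the alveolar epithelial markers 2 of 4 tested were higher (Hopx and Sftpc). Their part in the lung gene difference was not tested.

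Of 9 kidney endothelial genes considered, 4 were too low to test and the other 5 were lower in members with Hpgd, with a median log2 fold change of -2.53. Igfbp5, a secreted binding protein of insulin-like growth factors, ranged from 0 to 342 CPM (median 208) in members with Hpgd and from 2658 to 13114 CPM (median 5038) in those with Plvap alone (log2 fold change -5.18 ± 0.43, adjusted p = 8.80e-08). The ranges did not overlap, and Igfbp5 had the largest fall of any gene that met the naming rule. Irx3, a homeobox gene, averaged 11.8 ± 13.8 against 245 ± 55.2 CPM (log2 fold change -4.35) and Igfbp3 159.9 against 845 CPM (-2.53). Ehd3 (-1.16) and Dkk2 (-1.80) were lower by less. The summed level of the kidney tubule markers was 139 to 1440 CPM in members with Hpgd and 167 to 1502 CPM in those with Plvap alone, lower in the former in 5 of 7 libraries, and 0 of 4 tested passed. Their part in the kidney gene difference was not tested.

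**Figure D2:**
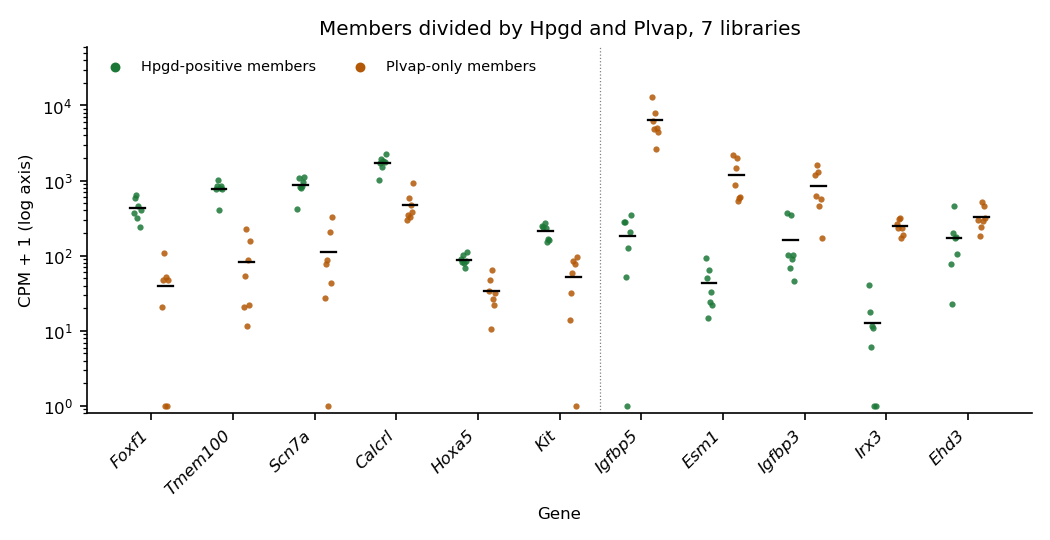
CPM + 1 (log axis) of 11 genes in members with an Hpgd UMI and members with Plvap and no Hpgd UMI, 1 point a library (7 libraries), bars at the mean. Foxf1, Tmem100 and Scn7a were higher in the members with Hpgd in every library, and Igfbp5, Esm1 and Irx3 were lower in every library.

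The receptors of vascular endothelial growth factor followed the kidney genes. Of 8 measured members of the VEGF list, 5 were lower and 2 higher in members with Hpgd. Kdr, the main VEGF receptor, ranged from 274 to 599 CPM (median 364) against 966 to 2427 CPM (median 1396) (log2 fold change -2.002 ± 0.142, adjusted p = 1.21e-08) without overlap. Flt1 averaged 738 against 2235 CPM (-1.55) and the co-receptor Nrp1 398 against 891 CPM (-1.14). Esm1, a proteoglycan of endothelial tip cells, averaged 42.4 ± 28.5 against 1170.2 ± 689 CPM (-4.81). The apelin gene Apln, an aerocyte gene, was lower in members with Hpgd as well (5.65 against 46.6 CPM, -2.71, adjusted p = 0.00609), although 2 of 7 libraries went the other way.

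Most genes that mark general capillary cells in lung were on the side of Hpgd. Of 7 measured, 5 were higher and 0 lower (median log2 fold change 1.41). Cxcl12, a chemokine, had a log2 fold change of 2.56, the stem cell factor receptor gene Kit 2.15 (209.7 against 51.0 CPM), Nostrin 1.96, the integrin gene Itga1 1.41 and the phosphatase gene Ptprb 0.41. The angiopoietin receptor gene Tek and the apelin receptor gene Aplnr were not among the 5. Over 8 libraries Tek was 351 to 470 CPM in members with Hpgd and 325 to 546 CPM in all members. Aplnr was 15.8 to 76.1 CPM and 25.8 to 69.9 CPM. Of the genes that meet flow, 8 of 10 were higher in members with Hpgd than in those with Plvap alone, and Nos3 was lower. Klf4 averaged 930.1 against 287 CPM (1.70), Edn1 (endothelin) 335 against 89.6 CPM (1.93), Thbd (thrombomodulin) 917 against 433 CPM (1.13) and Nos3 (endothelial nitric oxide synthase) 39.0 against 88.5 CPM (-1.24). Ace, angiotensin-converting enzyme, averaged 593 ± 90.6 against 84.0 ± 74.6 CPM (log2 fold change 3.02 ± 0.31, adjusted p = 1.19e-06) and was higher in 7 of 7 libraries.

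Fatty acid handling divided the members within the same list. Cd36, a fatty acid transporter, was higher in members with Hpgd (1321 against 452 CPM, 1.61), as was Lpl (1.23). Fabp4, a fatty acid binding protein, was lower (1163 against 4396 CPM, -2.79, adjusted p = 3.92e-04), with 6 of 7 libraries on that side. Of the 8 measured basement membrane genes 6 were lower, among them Nid1 (-0.80) and Sparc (-0.72).

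Early response genes stood apart between the members as well. All 13 immediate early genes were higher in members with Hpgd, with a median log2 fold change of 1.82. Fos ranged from 951 to 2893 CPM (median 1979.5) against 39.1 to 800.0 CPM (median 313) (2.66 ± 0.31, adjusted p = 4.83e-06), Egr1 averaged 2486 against 673 CPM (2.20) and Jun 2129.8 against 629.9 CPM (1.84). Of 8 heat shock genes 6 were higher, with Hspa1a at 1260.3 against 240.4 CPM (2.42). These genes respond to tissue dissociation, and the part of dissociation in the difference was not tested. Of 7 MHC class II genes 5 were higher, among them Cd74 (1.48) and H2-Aa (1.29). The summed leukocyte markers, which include Cd74, were 1481 to 4483 CPM in members with Hpgd and 522 to 2571 CPM in those with Plvap alone, and their part in the class II difference was not tested.

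The 10 genes with the largest rise in members with Hpgd held Myzap, Antxr1, Specc1, Foxf1, Dnah2os, Tmem100, Ptgfrn, Tox3, Tox2 and the beta-1 adrenergic receptor gene Adrb1. Myzap, a junction-associated protein, led them at 198 ± 45.9 against 15.1 ± 16.0 CPM (log2 fold change 3.87 ± 0.35, adjusted p = 2.11e-07). The 10 with the largest fall held Igfbp5, Esm1, Irx3, Exoc3l2, Ephb1, 3110099E03Rik, Btnl9, AU021092, Tmem26 and the retinoic acid receptor gene Rarb. Exoc3l2 averaged 15.0 ± 9.93 against 302 ± 112 CPM (-4.31) and Btnl9 35.6 ± 28.9 against 489 ± 233 CPM (-3.78). The interferon-induced gene Ifi44 was lower too (57.0 against 436 CPM, -2.94), while the 15 measured interferon genes divided into 2 higher and 3 lower.

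Members were next set against aerocytes, a capillary type of the lung alveolus. Aerocytes were endothelial barcodes with Car4 and Ednrb and without Mmrn1, Stab2 and Vwf, and 1014 were found in the 11 libraries. There were 1.51, 1.51, 3.59, 7.10 and 0.500 members per aerocyte in wt replicates 1 to 5, 2.19 and 4.19 in the het libraries and 2.89 and 2.46 in the null libraries. Of 7238 genes tested in 8 libraries, 490 were higher (6.77%) and 497 lower (6.87%) in members, and 496 of these 987 (13.6% of genes tested) moved the same way in every library. Because some members carried kidney genes, each gene result was also computed with the members with Hpgd alone, an alternative chosen after seeing the data. Of the 490 higher genes 448 could be tested there and 313 were higher again, and of the 497 lower genes 384 were lower again. In that computation 445 of 5574 genes were higher (7.98%) and 462 lower (8.29%). The median UMI count was higher in aerocytes than in members in 6 of 8 libraries.

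All 8 aerocyte genes outside the rule were lower in members, with a median log2 fold change of -3.05 (-2.88 in members with Hpgd alone). The aerocytes of null replicate 2 held 28175 CPM of summed alveolar epithelial markers, against 453 to 2819 CPM in the other 7 libraries and 1050 CPM in the members of that library. Without it the 8 genes were lower again, and its aerocytes held 1206 CPM of Emp2, which alveolar epithelium also expresses, against 1196 to 2177 CPM in the others. The apelin ligand gene Apln ranged from 6.72 to 44.0 CPM (median 10.5) in members and from 109 to 299 CPM (median 208) in aerocytes without overlap (log2 fold change -3.75 ± 0.25, adjusted p = 2.18e-11). Its receptor gene Aplnr went the other way, from 25.8 to 69.9 CPM (median 44.8) against 0 to 50.7 CPM (median 18.5) (log2 fold change 1.41 ± 0.31, adjusted p = 0.00184), higher in 7 of 8 libraries. Ligand and receptor of the apelin pair were thus higher in opposite classes, the ligand with a wider margin than the receptor. In members with Hpgd alone Aplnr ranged from 15.8 to 76.1 CPM. It was below aerocytes in wt replicate 4 (15.8 against 37.7 CPM) and het replicate 2 (42.8 against 50.7 CPM) and above them in the other libraries.

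Kit and its ligand gene Kitl were also higher in opposite classes, but Kitl was picked after its values were seen, so this is a description only. Kit averaged 182 ± 43.4 CPM in members and 75.1 ± 49.8 CPM in aerocytes (log2 fold change 1.56 ± 0.20, adjusted p = 2.09e-06) and was higher in 8 of 8 libraries. Kitl, stem cell factor, ranged from 236 to 409 CPM (median 327) against 875 to 2498 CPM (median 1203) (log2 fold change -1.96 ± 0.13) without overlap.

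For VEGF, the receptor gene was on the aerocyte side and a ligand gene on the member side. Kdr ranged from 421 to 1246 CPM (median 539.7) in members and from 1419 to 3184 CPM (median 1559.7) in aerocytes (log2 fold change -1.40 ± 0.12, adjusted p = 2.52e-09), and its log2 fold change was -2.17 in members with Hpgd alone. Nrp1 was also lower in members (log2 fold change -1.15). Vegfa averaged 248 against 131 CPM (1.11 ± 0.17, adjusted p = 2.37e-05) and was higher in 8 of 8 libraries, and Vegfc was higher by 1.30 at 25.1 against 9.34 CPM. Flt4 and Nrp2 were higher in the members as a whole (1.00 and 1.38) but did not pass in members with Hpgd alone (0.55 and 0.53, adjusted p = 0.134 and 0.349).

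Of the angiopoietin and Tie genes 4 of 5 were higher in members. Tek, the angiopoietin receptor, ranged from 325 to 546 CPM (median 405) against 107 to 290.2 CPM (median 206) (log2 fold change 1.24 ± 0.14, adjusted p = 2.23e-07) and the groups did not overlap. Ptprb, the phosphatase that acts on this receptor, ranged from 1334 to 2438 CPM (median 1929) against 423 to 1282 CPM (median 948) (1.26 ± 0.14, adjusted p = 1.58e-07), again without overlap. Angpt2 (1.19, at 24.1 against 12.2 CPM) and Tie1 (0.35) rose by less, and with Hpgd alone Tek and Ptprb passed and Tie1 did not (adjusted p = 0.159).

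The general capillary list, 6 of 7 higher (median log2 fold change 1.24), was completed by Cxcl12 (0.95) and Itga1 (0.75). Nostrin was lower (-0.47), and with Hpgd alone it did not pass (-0.19, adjusted p = 0.454). Of 10 Notch genes 5 were higher and 0 lower. The ligand genes Dll1 (97.9 against 53.1 CPM, 1.21) and Jag1 (0.83), the receptor gene Notch4 (0.54) and the target genes Hey1 (46.5 against 15.9 CPM, 1.62) and Nrarp (0.98) passed, also with Hpgd alone. Arterial genes followed, with 4 of 6 higher, among them Sox17 (1.09), the connexin gene Gja4 (1.08) and Efnb2 (0.52).

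All 7 MHC class II genes were higher in members than in aerocytes, with a median log2 fold change of 1.02 (1.22 with Hpgd alone, against 0.03 and 0.02 over all genes). H2-Ab1 ranged from 254 to 773 CPM (median 461) against 96.7 to 377 CPM (median 281) (log2 fold change 1.09 ± 0.14, adjusted p = 2.87e-06). H2-Aa was higher by 0.92, H2-Eb1 by 0.86, H2-DMb1 by 1.08, H2-DMa by 0.57 and the invariant chain gene Cd74 by 1.02 (1739 against 958 CPM). Ciita, the transcription factor that switches the class II genes on, averaged 36.6 against 15.5 CPM (1.47 ± 0.30, adjusted p = 7.77e-04). Of the 6 measured leukocyte markers Cd74 alone passed, and their summed level was 1049 to 3704 CPM in members and 299 to 4034 CPM in aerocytes.

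**Figure D3:**
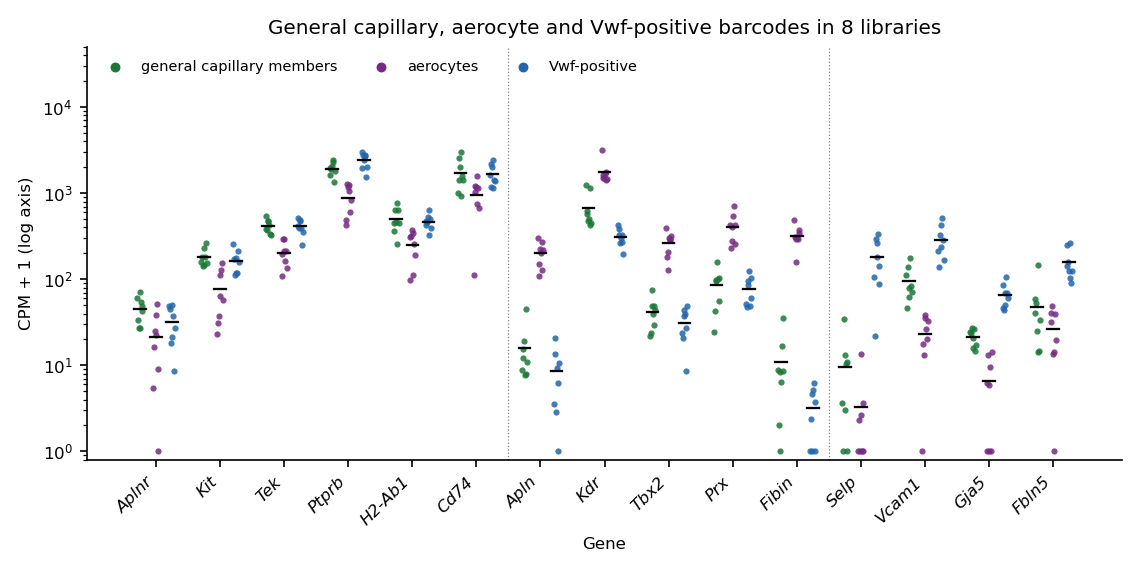
CPM + 1 (log axis) of named genes in members, aerocytes and Vwf-positive barcodes, 1 point a library (8 libraries), bars at the mean. Dotted lines part 3 blocks of genes. From left to right these were higher in members than in aerocytes, higher in aerocytes than in members, and higher in Vwf-positive barcodes than in members. Tek and Ptprb were higher in members than in aerocytes, Apln, Kdr and Tbx2 were higher in aerocytes, and Selp and Gja5 were higher in Vwf-positive barcodes.

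Most lung endothelial genes were lower in all members than in aerocytes. Of 8 measured 5 were lower and Bmp6 was higher (1.09), with Tbx3 at 120.4 against 530.3 CPM (-2.12) and Scn7a at 676 against 1300.0 CPM (-0.93). The summed lung list was 2315 to 4740 CPM in all members, 3400 to 5510 CPM in members with Hpgd and 4863 to 8092 CPM in aerocytes. Members with Hpgd stood above aerocytes only in wt replicate 2 (4971 against 4863 CPM). Among the aerocyte genes, the transcription factor gene Tbx2 had a log2 fold change of -2.76, Emp2 -3.33, Prx -2.26 and Fibin -5.53. The cell cycle inhibitor genes Cdkn2a and Cdkn2b were among the 10 largest falls, at 2.70 ± 1.99 against 41.8 ± 35.9 CPM (-3.87 ± 0.44, adjusted p = 3.22e-07) and 2.08 ± 2.38 against 42.5 ± 16.0 CPM (-3.96 ± 0.40, adjusted p = 4.18e-08). Both were low in every member library and did not overlap with aerocytes. Icam2 (-1.39), Cd34 (-1.30), Cd36 (-0.73) and Thbd (-0.88) were lower in members, and Edn1 (1.49), Plat, the tissue plasminogen activator (1.30), Ptgs1 (1.28), Lpl (0.56) and Vcam1 (1.71) were higher.

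For 3 named genes the sign against aerocytes depended on which members were used. Igfbp5 changed from 1.57 in all members to -1.63 in members with Hpgd, Esm1 from 1.94 to -0.96 and Irx3 from 0.67 to -1.80, each past the threshold in both computations. Of the 9 kidney genes 5 were tested and higher in all members, and of 4 tested in members with Hpgd 1 was higher and 2 were lower.

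Liver endothelial genes behaved differently. All 6 measured were higher in members than in aerocytes, and 5 of 5 with Hpgd alone (median 2.55 and 2.49). Dnase1l3, a secreted DNase of liver sinusoids, was 39.2, 11.3, 136 and 53.9 CPM in wt replicates 1 to 4, 94.1 and 377 CPM in the het libraries and 55.3 and 166 CPM in the null libraries. It ranged from 0 to 10.7 CPM (median 0.829) in aerocytes and did not overlap (log2 fold change 4.55 ± 0.33, adjusted p = 9.16e-11). Clec4g (2.57), Mrc1 (2.53) and Fcgr2b (2.40), which also mark sinusoids, moved with it. The summed liver list ran from 183 to 1878 CPM in members, highest in het replicate 2, and from 92.9 to 292 CPM in aerocytes. Whether these transcripts came from liver cells within the gate or from free RNA was not tested.

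Vwf-positive barcodes, which stand for larger vessels, were endothelial barcodes with Vwf and without Car4, Ednrb, Mmrn1 and Stab2, and 2043 were found in the 11 libraries. Their median UMI count was higher than that of members in 7 of 8 libraries. Of 7963 genes tested, 129 were higher (1.62%) and 180 lower (2.26%) in members, and 167 of these 309 (3.88% of genes tested) moved the same way in all 8 libraries. With Hpgd alone, 114 of the 129 could be tested and 29 were higher again, and 177 of the 180 were tested and 76 were lower again. In that computation 142 of 7521 genes passed (1.89%), of which 43 were higher (0.572%) and 99 lower (1.32%). The count of 309 fell to 194 with DESeq2, to 193 when 3 of the 4 pan-endothelial genes were required and to 144 on thinned barcodes.

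Some venous and arterial genes were lower in members. Of 7 venous genes 4 fell and 0 rose. Selp (P-selectin), an adhesion receptor for leukocytes, ranged from 0 to 33.2 CPM (median 6.02) in members and from 21.1 to 338 CPM (median 161) in Vwf-positive barcodes (log2 fold change -4.30 ± 0.23, adjusted p = 2.59e-13). Slc6a2, the noradrenaline transporter, averaged 8.20 ± 17.9 against 183 ± 135 CPM (-4.60), Vcam1 94.8 against 289 CPM (-1.65) and Bgn 185 against 375 CPM (-1.11). Of 8 arterial genes 3 fell, namely the connexin gene Gja5 (20.2 against 65.3 CPM, -1.62), Fbln5 (-1.89) and Bmx (-1.50). All of these also passed in the same direction with Hpgd alone.

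The largest fall of a named gene was that of Cytl1, a secreted cytokine-like protein, which ranged from 0 to 13.8 CPM (median 3.89) against 32.8 to 428 CPM (median 233) without overlap (log2 fold change -5.70 ± 0.23, adjusted p = 1.83e-15). Eln (elastin) averaged 39.8 ± 12.9 against 189.6 ± 63.9 CPM (-2.02) and Fbln2 37.7 ± 16.0 against 167 ± 64.7 CPM (-2.09). Sele (-1.98), Icam1 (-0.56), the prostanoid enzyme genes Ptgs2 (-2.09) and Ptgis (-1.26) and the growth factor gene Vegfc (-1.62) were lower as well, and each passed again with Hpgd alone.

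The higher genes depended on which members were used. Kdr averaged 679 against 312 CPM (1.03, adjusted p = 1.62e-07) in all members, and with Hpgd alone its log2 fold change was 0.28 (adjusted p = 0.302). Fabp4 went from 1.92 to 0.21, Igfbp5 from 2.49 to -0.42, Esm1 from 3.13 to 0.31 and Emcn from 0.92 to -0.07, and none of these passed with Hpgd alone. Dnase1l3 (3.59 and 3.69), Clec4g (2.50 and 2.49), Fcgr2b (2.51 and 2.57), Rsad2 (2.11 and 0.97) and the basement membrane gene Col4a2 (0.60 and 0.54) passed both ways. Kit (0.11 and 0.41) and Scn7a (0.30 and 0.69) passed with Hpgd alone and not in all members. Some genes that set members above aerocytes did not set them above this class. Ptprb was 1547 to 2977 CPM in Vwf-positive barcodes and 1334 to 2438 CPM in members, higher in the former in every library. Tek was 248 to 517 CPM against 325 to 546 CPM in members, and Aplnr 7.51 to 49.2 CPM against 25.8 to 69.9 CPM.

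Of the flow genes 5 of 10 and of the early response genes 8 of 13 were lower in members than in Vwf-positive barcodes. The log2 fold change was -0.52 for Klf4, -0.48 for Thbd, -0.52 for Fos and -0.38 for Egr1. With Hpgd alone these 4 did not pass (adjusted p = 0.244, 0.222, 0.649 and 0.933), and 0 of 13 early response genes did. No MHC class II gene passed in all members (0 of 7), and H2-Aa was higher with Hpgd alone.

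**Figure D4:**
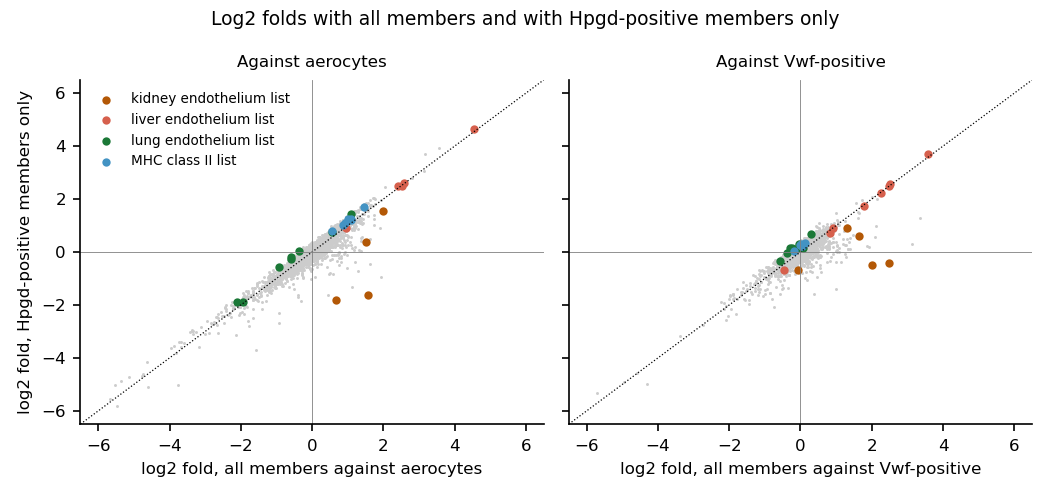
Log2 fold change of each gene against aerocytes (left) and Vwf-positive barcodes (right), with all members on the x axis and with the members that carried an Hpgd UMI on the y axis. Grey points are genes tested in both computations, colored points are 4 gene lists and the dotted line marks equal values. Genes of the liver and MHC class II lists lay near the line, while kidney genes such as Igfbp5 (1.57 and -1.63 against aerocytes) lay below it.

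The genotypes were compared last. Nalcn itself (chromosome 14, 123276634 to 123627144) was at the limit of detection. It had 2 UMIs in 857 members of the 4 wt libraries, 0 in 477 members of the het libraries and 0 in 521 members of the null libraries. A count of 0 allowed levels up to 2.82 CPM in het and 3.17 CPM in null (3 counts over the group), so the data cannot show whether Nalcn was lost in these cells. Prom1, whose promoter drove the recombinase, had 42 of 2131554 UMIs in the wt members, 8 of 1061990 in het and 5 of 945332 in null. Whether any member had recombined was not analysed here.

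The share of members among endothelial barcodes was 17.5 ± 4.18% in null (SD, n = 2) and 14.2 ± 5.28% in wt (n = 5), a difference of 3.28 percentage points (exact two-sided permutation test, p = 0.524). In het it was 19.6 ± 2.52% (n = 2), a difference of 5.37 percentage points (exact two-sided permutation test, p = 0.286). The smallest p these 21 arrangements allow is 0.0476. Without wt replicate 5, the library with 18 endothelial barcodes, wt averaged 16.4% and the differences were 1.12 percentage points in null and 3.20 in het, and the null difference was 0.33 without null replicate 3 and 6.24 without null replicate 2. The log2 ratio of members to aerocytes was 1.42 ± 0.17 in null, 1.60 ± 0.66 in het and 0.97 ± 1.45 in wt, differences of 0.44 and 0.63 (exact two-sided permutation tests, p = 0.667 and 0.619). Wt replicate 5 held 1 member and 2 aerocytes, and without it wt averaged 1.47 and the differences were -0.05, in the other direction, and 0.134. On barcodes thinned to 1000 UMIs the het difference was 4.38 percentage points (exact two-sided permutation test, p = 0.0476).

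Of 7087 genes tested, with sex as a covariate and the 3 genotypes in a single fit, 10 were higher in null than in wt members (0.141%) and 0 were lower, with 289 at an unadjusted p under 0.05 and 13 called by DESeq2. Between het and wt 0 genes passed (0.0%), with 491 at an unadjusted p under 0.05 and 1 called by DESeq2. With het and null pooled against wt 3 were higher (0.0423%), namely Cst12, Spag11b and Apoc1, with 301 at an unadjusted p under 0.05 and 8 called by DESeq2. The null count was 6 without null replicate 3 and 0 when at least 3 of the 4 pan-endothelial genes were required, and the joint count was 0 without het replicate 1, null replicate 2, null replicate 3 or wt replicate 4.

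The 10 higher genes were not endothelial. Cst12, Defb47, Defb25, Defb20, Cst11, Spag11b, Gpx5 and Defb42 are genes of the epididymis, most of them cystatins and defensins secreted onto sperm. Fabp1 and Apoc1 are abundant in liver. In the members, Defb20 was 13.1, 54.3, 22.1 and 0 CPM in wt replicates 1 to 4, 59.2 and 18.8 CPM in het and 1969 and 702 CPM in null (log2 fold change 6.42 ± 0.63, adjusted p = 9.66e-04). Both null libraries were above all others.

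The same transcripts were present in other cells of these libraries. In Ptprc-positive barcodes, Defb20 was 1858 and 2577 CPM in the null libraries, 1120 and 185 CPM in the het libraries and 737, 74.3, 29.4 and 0 CPM in wt replicates 1 to 4. Fabp1 overlapped there, at 358 and 438 CPM in null, 421 and 188 CPM in het and 288, 133, 294 and 110 CPM in wt replicates 1 to 4. In members it was 173 and 126 CPM in null and 9.98 to 16.4 CPM in these wt libraries. Apoc1 in null was 152 and 156 CPM in members and 101 and 84.4 CPM in Ptprc-positive barcodes. The sum of the 7 epididymal markers in null was 7172 and 1855 CPM in members, 778 and 2361 CPM in aerocytes and 518 and 1187 CPM in Vwf-positive barcodes, against at most 203, 254 and 250 CPM in wt. The 7172 CPM of null replicate 2 were unevenly spread. There the sum was 2594 CPM in the 72 members with Hpgd and 4695 CPM in the 11 with Plvap alone, and another 27 members had neither transcript. The sum of the hepatocyte markers in null was 871 and 818 CPM in members, 583 and 477 CPM in aerocytes and 623 and 460 CPM in Vwf-positive barcodes, against at most 527, 375 and 458 CPM in wt. Null replicate 3 was labelled female with uterus as its organ, and it carried epididymal transcripts in all these classes. The part of free RNA in the 10 calls was not tested.

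**Figure D5:**
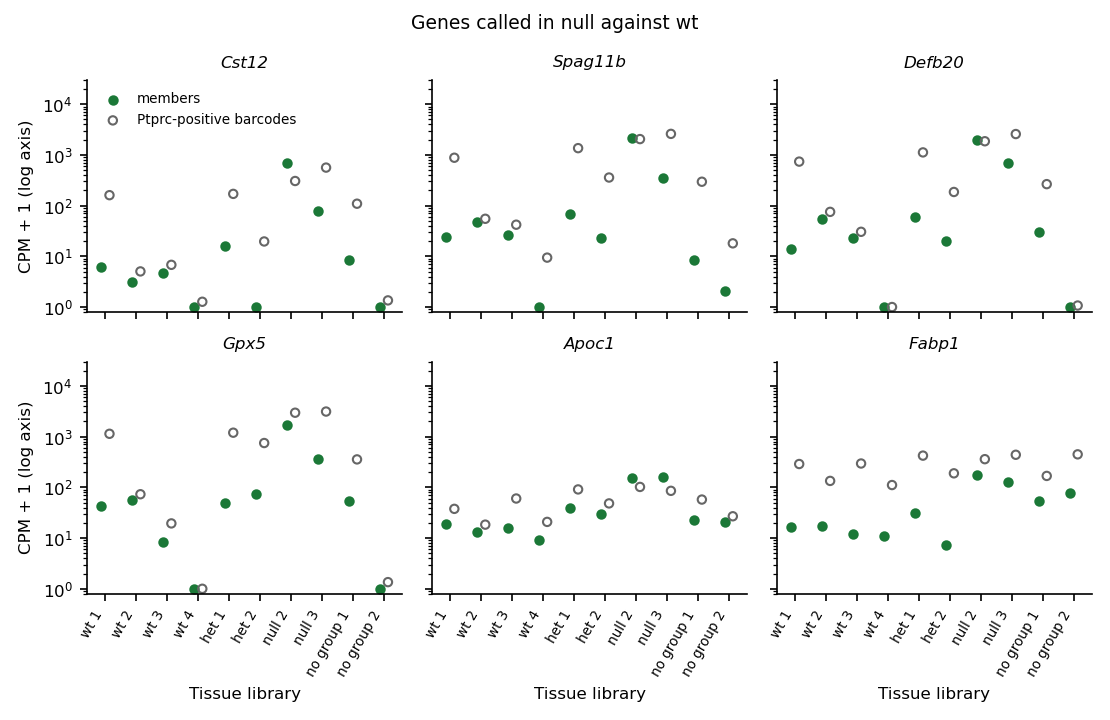
CPM + 1 (log axis) of 6 of the genes higher in null than in wt members, in members (filled) and in Ptprc-positive barcodes (open) of each tissue library except wt replicate 5. Defb20 was 1969 and 702 CPM in the null members and 1858 and 2577 CPM in the null Ptprc-positive barcodes.

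No further gene passed between null and wt members. Of the lists tested, the epididymal markers had 5 of 7 genes called and the hepatocyte and lipid uptake lists had Fabp1, and no gene of any other list passed in null. In het no listed gene passed. On simulated counts the null test called 6 of 100 genes changed 2-fold and 56 of 100 changed 4-fold. The het test called 10 and 70. A list with 0 calls therefore cannot be read as unchanged. The lung list had 0 of 8 called in null (median log2 fold change 0.11), the general capillary list 0 of 7 (0.22), the VEGF list 0 of 10 (-0.13), the MHC class II list 0 of 7 (0.05), the early response list 0 of 13 (0.62) and the interferon list 0 of 14 (-0.69), against -0.005 over all genes.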

How the data were processed

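Single-cell RNA was captured with 10x Chromium 3′ chemistry. Per the labels and the study's methods, the authors aligned reads to mm10 using Cell Ranger, version 2.1.1 by the submitters' processing notes (which also list Seurat) and 3.0.2 by the headers of the matrices, and deposited filtered matrices of raw UMI counts, without normalization. Hashtags had been used to mark organs before pooling. Each matrix had 31053 gene entries, 30934 of them in the GENCODE annotation of the same build, which gave the coordinates.

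The members, gene lists and tests were chosen with earlier results of these data known, and the members were not clustered but selected by the rule given above. Libraries, not cells, were the replicates: UMI counts of the members, of aerocytes, of Vwf-positive barcodes and of both kinds of member were summed per library, and a library needed at least 20 barcodes of each class. Genes were tested with edgeR 4.0.16 (R 4.3.3, TMM, filterByExpr, quasi-likelihood F test) with Benjamini-Hochberg adjustment over all genes tested and a threshold of 0.05. Genotypes were fitted together with sex as a covariate, and cell classes with library as a block. SE was the absolute log2 fold change divided by the square root of F. Genes used in the gates were given no test. Shares and ratios were compared by exact two-sided permutation tests of the library labels (SciPy 1.17.1).

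Genes named in the text were gate genes, genes of the fixed lists, the 20 most abundant genes, and in each comparison up to 10 genes a direction with the largest change among those that passed and reached 20 CPM. Kitl was added after its values were seen, and 1 gene of the kidney list is not reported here. Alternatives were DESeq2 1.42.0, other size factors, no filter on low counts, 3 of the 4 pan-endothelial genes, the fixed barcode limits of the study (over 100 and under 5000 genes, under 20% mitochondrial UMIs, without its limits set per sample or its removal of hashtag doublets and negatives), doublets left out (Scrublet scores, 0.8% per 1000 barcodes up to 25%), thinning to 1000 UMIs, no sex term, a replicate block, the libraries without a group placed by title or by strain entry, and each library left out. Doublets stayed in the main computation. Scripts were tested on simulated counts. Replicate pairs differed by at least 2.17 chi-square units per degree of freedom over genes, so no library was counted as a copy.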

Additional observations from a re-analysis of the deposited data

Results flagged for a closer look

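Among 29 groups of 4 or 5 libraries that were tested for a sample far from the others, 3 were picked out, and chance picks about 1 in 20. Tmem252 was 233.5 CPM in the members of wt replicate 4 and 72.7 to 77.4 CPM in the other wt libraries. Defb47 and Defb25 were each 5.23 CPM in the members of wt replicate 1, which is 2 UMIs of 382744, and 0 in the other wt libraries. A group with only 1 library above 0 is always picked out, so the chance rate does not hold for these genes.

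The 2 libraries without a group lay outside the range of wt replicates 1 to 4 in 4 measures. In the library aged 647 days members were 20.5% of endothelial barcodes (13.1% to 18.8% in wt) and 74.0% of members carried Hpgd (44.0% to 72.2% in wt), while 9.88% carried Plvap without Hpgd. In the library aged 610 days 75.6% of members carried Plvap without Hpgd (13.7% to 51.7% in wt) and 12.8% carried Hpgd, and there were 7.17 members per aerocyte (1.51 to 7.10 in wt). That ratio counted all members. The library held 11 members with Hpgd and 12 aerocytes, against 51 and 77, 203 and 231, 73 and 32, and 200 and 39 in wt replicates 1 to 4. These differences were not tested.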

How the results depend on the processing

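The genotype counts depended on the processing and the class comparisons less so. The 10 genes of null against wt became 52 without the filter on low counts, 0 with 3 of the 4 pan-endothelial genes required, 6 with Hpgd alone, 5 with the libraries without a group placed by strain entry and 0 by title, and 6 to 14 with a library left out (lowest without null replicate 3). The count of 0 for het became 1 with DESeq2, 192 without the filter and 0 to 4 with a library left out (4 without wt replicate 1). The 3 of het and null together became 8 with DESeq2, 120 without the filter, 0 with 3 of the 4 genes, 5 with the study's barcode limits, 5 without doublets, 1 without the sex term, 0 with Hpgd alone, 0 by strain entry or by title, and 0 to 6 with a library left out. The cause was not tested.

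The replicate numbers were not taken as pairs. Deviations of same-numbered libraries from their group means had correlations from -0.28 to 0.05. With 2 libraries in het and in null, those of different numbers are their mirror image, so these correlations cannot settle the pairing. With a replicate block 9 genes passed in null, 0 in het and 1 in both together.

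Against aerocytes 987 genes passed, and 776 to 988 with a library left out. Against Vwf-positive barcodes the 309 became 194 with DESeq2, 193 with 3 of the 4 genes, 144 after thinning, 142 with Hpgd alone and 246 to 304 with a library left out. Between the members with Hpgd and with Plvap alone the 957 became 390 after thinning, which leaves 5 libraries, and 784 to 893 with a library left out. Among the named genes that were followed through the alternatives, the sign turned only with Hpgd alone. Against aerocytes it turned for Igfbp5 (-1.63), Esm1 (-0.96) and Irx3 (-1.80), and against Vwf-positive barcodes for Igfbp5 (-0.42), Irx3 (-0.50), Emcn (-0.066) and Flt1 (-0.22).

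The share of members in het differed from wt by 4.38 percentage points after thinning (exact permutation, p = 0.0476) and by 3.20 to 7.16 with a library left out. For null the range was 0.33 (without null replicate 3) to 6.24 (without null replicate 2). The log2 ratio of members to aerocytes differed by -0.05 to 0.91 in null and by 0.134 to 1.096 in het with a library left out (lowest without wt replicate 5 in both, highest without wt replicate 4 in null and het replicate 1 in het). With 4 wt libraries left, it differed by -0.25 in null and 0.02 in het after thinning and by -0.15 and 0.08 under the study's barcode limits, where no p under 0.0667 is possible. With 2 libraries a group in het and null, and organs pooled without a label per barcode, a share can also follow how much of each organ was loaded, and this cannot be told apart from genotype.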
